A study of Mus musculus with 12 samples.

Results

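The genes described here are Myc, its relatives Mycn and Max, and 41 genes of the nucleolus that make the ribosome, 44 genes in all of the 13552 in the deposited table. They were chosen by name: RNA polymerase I and its partners, the small nucleolar ribonucleoproteins (snoRNPs) that modify ribosomal RNA, and the factors that cut, fold and assemble the small and the large ribosomal subunit. All 44 were in the table, and 43 of them reached 1 RPKM in at least 3 hearts and were tested. RPKM is the number of reads of a gene scaled by its exon length and by the reads of the library on genes. Wdr12 fell short of that filter, and Nop58 passed it only through hearts in which it was high.

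Hearts came from male mice labelled C57BL/6, the WT mice and the background of the KI line being of the C57BL/6J substrain. They were 8 to 10 weeks old at surgery, and their hearts were collected 9 h after transverse aortic constriction (TAC) or sham surgery. TAC narrows the aorta and makes the left ventricle pump against a raised pressure, and the sham operation leaves the aorta open. Wild-type (WT) mice and knock-in (KI) mice homozygous for Bcl-xL S14A, in which codon 14 of this survival protein encodes alanine in place of serine, gave 4 groups of 3 mice, a sham and a TAC group of each genotype. Mice are named by the numbers in their labels. The WT mice were purchased and the KI line was bred through a Cre deleter and backcrossed for more than 8 generations, so that genotype and breeding source cannot be told apart. The knock-in is carried by every cell of the animal and is not limited to cardiomyocytes. The level of Bcl2l1, the gene of Bcl-xL, does not check the altered codon, and the genotype rests on the labels.

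Myc is a transcription factor that pairs with Max and binds the DNA sequence CACGTG, the E-box. Cells that are stimulated to grow switch it on within hours, and genes of ribosome production are among its best known targets. In the nucleolus, RNA polymerase I transcribes the ribosomal DNA into 1 long precursor, snoRNPs guide its methylation and pseudouridylation, and the processing factors release the mature RNAs while ribosomal proteins are added. In the heart, a rise in ribosome number is a known early step of the growth of cardiomyocytes under pressure load.

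Depth was 23650191 to 32455166 reads on genes per heart, and the members had a median of 171.5 to 5473 reads over the 12 hearts. The 7 cardiomyocyte markers examined, Myh6 and Tnnt2 among them, summed to 13394 to 23456 RPKM, with Actc1 the most abundant, and none was at 0 in any heart. Over all genes tested, the median change after TAC was 0.035 on the log2 scale in WT and −0.10 in KI hearts, and the median difference between the TAC groups was −0.12 (KI minus WT), so members are read against these medians. On quantile-normalized or median-ratio scaled values these medians lay between −0.020 and 0.030. These are whole-tissue RNA samples, in which fewer cells of a type and less RNA per cell cannot be told apart.

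The promoters of several members carry the E-box that Myc and Max bind, and those of the genes that rose after TAC in both genotypes are shown for that reason. Promoter sequences from RefSeq (GRCm38.p6), 250 bases before to 50 bases after the gene start, were found for 37 of the 44 members. The other members, Myc, Fbl, Npm1, Rrp12, Bop1, Rrs1 and Gnl2, had no entry. CACGTG reads the same on both strands. It was present in 13 of the 37 members (35.1%), in 12.2% of the 8689 tested genes that had a promoter and in 8.09% of all 27025 genes that RefSeq gives a promoter. Of 13 members with a promoter that passed the threshold in both genotypes, 5 held it (38.5%), against 6 of 14 (42.9%) that passed it in neither genotype and 1 of 8 (12.5%) that passed it in KI hearts only. In the other ribosome assembly genes listed for comparison it was present in 12 of 74 (16.2%). Rrn3 held 2 boxes, and 9 of the 14 boxes lay at or after the gene start. The 5 promoters with a box among members that rose in both genotypes follow, 5′ to 3′ along the gene, with the box in capitals. Wdr43 is at chr17:71615965-71616264 on the plus strand, Tsr1 at chr11:74897830-74898129 on the plus strand, Ltv1 at chr10:13193088-13193387 on the minus strand, Grwd1 at chr7:45830740-45831039 on the minus strand and Nop2 at chr6:125131633-125131932 on the plus strand.
Wdr43: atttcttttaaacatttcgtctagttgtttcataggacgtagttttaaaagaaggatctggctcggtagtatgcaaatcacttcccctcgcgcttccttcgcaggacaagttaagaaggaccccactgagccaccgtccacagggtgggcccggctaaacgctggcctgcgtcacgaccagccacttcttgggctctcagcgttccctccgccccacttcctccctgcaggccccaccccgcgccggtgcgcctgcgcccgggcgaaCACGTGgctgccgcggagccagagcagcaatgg
Tsr1: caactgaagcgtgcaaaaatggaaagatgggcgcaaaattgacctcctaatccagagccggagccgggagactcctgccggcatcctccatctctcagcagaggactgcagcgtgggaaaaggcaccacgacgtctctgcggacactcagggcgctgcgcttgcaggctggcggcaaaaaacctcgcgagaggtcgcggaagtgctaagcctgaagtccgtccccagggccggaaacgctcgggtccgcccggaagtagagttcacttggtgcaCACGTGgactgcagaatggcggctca
Ltv1: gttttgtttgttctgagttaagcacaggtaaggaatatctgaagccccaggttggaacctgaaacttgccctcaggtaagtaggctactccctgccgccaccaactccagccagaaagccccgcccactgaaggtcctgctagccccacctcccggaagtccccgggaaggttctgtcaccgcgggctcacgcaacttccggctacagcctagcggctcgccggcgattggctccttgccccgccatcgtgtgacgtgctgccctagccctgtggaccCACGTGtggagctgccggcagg
Grwd1: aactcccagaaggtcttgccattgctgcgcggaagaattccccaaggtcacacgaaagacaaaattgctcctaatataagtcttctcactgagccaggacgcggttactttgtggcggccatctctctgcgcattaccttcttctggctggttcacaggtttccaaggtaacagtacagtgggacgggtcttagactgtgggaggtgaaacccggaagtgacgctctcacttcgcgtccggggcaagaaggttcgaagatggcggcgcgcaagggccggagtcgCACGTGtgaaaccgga
Nop2: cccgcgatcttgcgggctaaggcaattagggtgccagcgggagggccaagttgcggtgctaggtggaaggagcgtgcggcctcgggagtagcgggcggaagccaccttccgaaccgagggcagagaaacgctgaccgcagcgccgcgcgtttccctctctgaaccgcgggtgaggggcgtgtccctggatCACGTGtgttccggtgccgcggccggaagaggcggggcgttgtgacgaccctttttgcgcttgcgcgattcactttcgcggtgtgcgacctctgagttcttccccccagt
Counting the first transcribed base as 0, the box began at 17 in Wdr43, 24 in Tsr1, 28 in Ltv1 and 34 in Grwd1, and at −60 in Nop2. Tsr1 and Nop2 encode factors of the small and the large subunit, respectively, and the box lay on either side of the gene start. A match describes letters in the reference sequence, and binding of Myc was not measured in these hearts.

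Myc (ENSMUSG00000022346, chromosome 15, 61985391 to 61990374 on the plus strand of GRCm38) was the member with the largest change after TAC in both genotypes. In WT sham hearts it was 2.33, 2.80 and 3.36 RPKM in mice 1, 2 and 3, and in WT TAC hearts 15.4, 23.0 and 7.43 RPKM in mice 7, 9 and 10. In KI sham hearts it was 2.74, 4.52 and 3.73 RPKM, and in KI TAC hearts 86.8, 32.4 and 24.5 RPKM in mice 5, 6 and 7. Every TAC heart had more Myc than every sham heart, and every KI TAC heart had more than every WT TAC heart. With median-ratio scaling the TAC groups overlapped, WT TAC mouse 9 (4.64 on the log2 scale) lying just above KI TAC mouse 7 (4.62). Means were 2.83 ± 0.52 RPKM in WT sham, 15.3 ± 7.80 in WT TAC, 3.67 ± 0.89 in KI sham and 47.9 ± 33.9 in KI TAC hearts (SD, n = 3 each).

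On the scale of log2(RPKM + 1), on which the change of a low gene is understated, Myc rose by 1.97 in WT hearts (standard error 0.41, adjusted p = 0.00846) in a limma model of all 4 groups with Benjamini-Hochberg adjustment over the genes tested. In KI hearts it rose by 3.19 (standard error 0.41, adjusted p = 0.000206 from limma). The mean RPKM after TAC was 5.40 times that of sham hearts in WT and 13.1 times in KI, and 7.77 times in KI without mouse 5. Between the TAC groups Myc was higher in KI hearts by 1.50 on this scale, with the same standard error and an adjusted p of 0.0353 from limma. That difference missed the threshold when 1 heart was left out, namely WT TAC mouse 7 (1.57, adjusted p = 0.104), WT TAC mouse 10 (1.09, adjusted p = 0.113), KI TAC mouse 5 (0.97, adjusted p = 0.0986) or KI TAC mouse 6 (1.67, adjusted p = 0.0857), or when the 2 TAC groups were fitted alone (adjusted p = 0.116, all from limma). The test of whether the TAC response itself differed between genotypes, the interaction, gave 1.22 (standard error 0.58, unadjusted p = 0.0547, adjusted p = 0.343 from limma). Leaving out KI TAC mouse 5 gave 0.69, leaving out WT TAC mouse 10 gave 0.81 and leaving out KI TAC mouse 7 gave 1.58.

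Mycn (ENSMUSG00000037169, chromosome 12, 12936093 to 12941914 on the minus strand), the family member known for its role in embryonic growth, did not follow Myc. It was 7.60, 3.70 and 3.07 RPKM in WT sham and 11.6, 5.10 and 7.02 RPKM in WT TAC hearts. In KI hearts it was 13.0, 4.59 and 3.81 RPKM after sham and 4.19, 1.32 and 3.29 RPKM after TAC. Mouse 1 was the highest of both sham groups, TAC and sham hearts overlapped in both genotypes, and every KI TAC heart was below every WT TAC heart. The fitted change of Mycn after TAC was 0.64 for WT (adjusted p = 0.344) and −0.95 for KI hearts (adjusted p = 0.117, both from limma with a standard error of 0.42). With 1 mouse left out it ranged from 0.35 to 0.96 for WT and from −1.25 to −0.48 for KI hearts. Set against WT TAC hearts, KI TAC hearts had −1.19 (adjusted p = 0.0797), and the interaction was −1.59 (standard error 0.59, unadjusted p = 0.0183, adjusted p = 0.248 from limma).

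Max (ENSMUSG00000059436, chromosome 12, 76937269 to 76962201 on the minus strand), the partner through which Myc binds DNA, was 5.27, 7.11 and 8.44 RPKM in WT sham and 4.60, 5.46 and 4.93 RPKM in WT TAC hearts. KI sham hearts had 4.89, 8.05 and 7.84 RPKM and KI TAC hearts 6.20, 8.80 and 6.66 RPKM. Sham and TAC hearts overlapped in both genotypes, and every KI TAC heart lay above every WT TAC heart. Its log2 fold change was −0.39 in WT (adjusted p = 0.241), 0.07 in KI (adjusted p = 0.847) and 0.44 for KI TAC against WT TAC hearts (adjusted p = 0.166, all from limma with a standard error of 0.21).

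**Figure D1:**
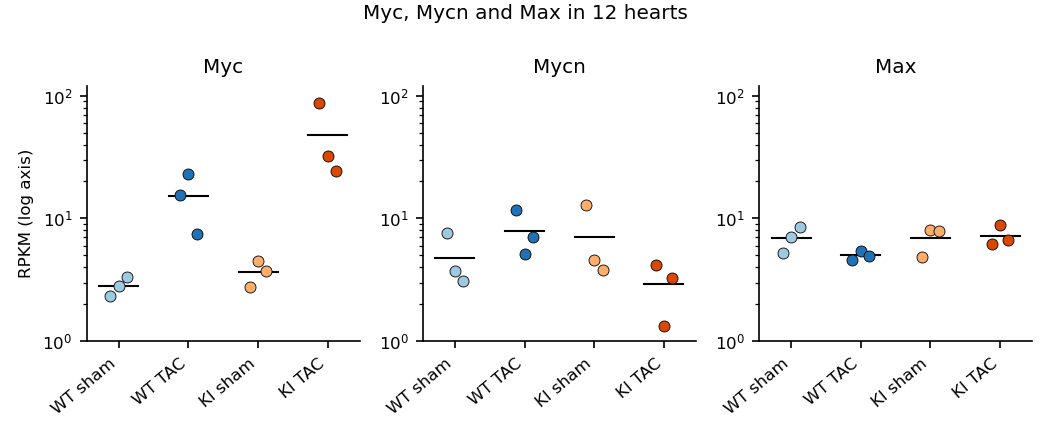
RPKM (log axis) of Myc, Mycn and Max in each of the 12 hearts, by group, where a point is a mouse and a bar the mean of 3 mice. Myc lies between 2.33 and 4.52 in sham hearts, between 7.43 and 23.0 in WT TAC hearts and between 24.5 and 86.8 in KI TAC hearts, while no such separation of TAC from sham hearts is seen for Mycn or Max.

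Across the list, 18 of 43 members (41.9%) rose in WT TAC against WT sham hearts and 0 fell, where 6.96% of all genes tested rose and 4.60% fell. In KI TAC against KI sham hearts 27 of 43 members (62.8%) rose and 0 fell, where 8.57% of all genes tested rose and 14.7% fell. The median log2 fold change of the members was 0.52 in WT and 0.71 in KI hearts. In 31 members every WT TAC heart was above every WT sham heart and in 0 every WT TAC heart was below, which held for 20.0% and 15.0% of all genes tested. In 32 members every KI TAC heart was above every KI sham heart (13.6% of all genes tested), and in 1, Polr1a, every KI TAC heart was below (24.7% of all genes tested). Nop58, which entered the test only through TAC hearts, is 1 of the 18, of the 27, of the 31 and of the 32. Without the filter on low values, 17 of 44 members rose in WT and 27 of 44 in KI hearts.

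The 2 counts differed in how much they rested on single mice. The WT count was 7 without WT TAC mouse 7, 7 without WT sham mouse 3, 8 without WT sham mouse 2, 9 without WT TAC mouse 9, 12 without WT sham mouse 1 and 22 without WT TAC mouse 10. Leaving out 1 KI mouse at a time gave 22 to 26 in KI hearts. Scaling moved the split over all genes: of the genes called after TAC, 60.2% rose in WT and 36.8% in KI hearts as deposited, 48.1% and 48.3% after quantile normalization, and 50.2% and 55.0% after median-ratio scaling. With quantile normalization 15 members rose in WT and 29 in KI hearts, and with median-ratio scaling 13 and 31, beside 6.68% and 12.1%, and 6.48% and 13.8%, of all genes tested.

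Members past the threshold in both genotypes numbered 16, and 2 (Pno1 and Bop1) passed it in WT hearts only, 11 in KI hearts only and 14 in neither. Of the WT calls 88.9% were also called in KI hearts, and of the KI calls 59.3% were also called in WT hearts. The same shares over all genes called higher were 54.0% and 43.8%. The log2 fold change was larger in KI than in WT hearts in 33 of 43 members (76.7%) and in 36.6% of all genes tested, and in 28 of 43 members without WT TAC mouse 10 or WT sham mouse 1. A pass in 1 genotype and a miss in the other is not a tested difference, and the interaction test is given further on.

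**Figure D2:**
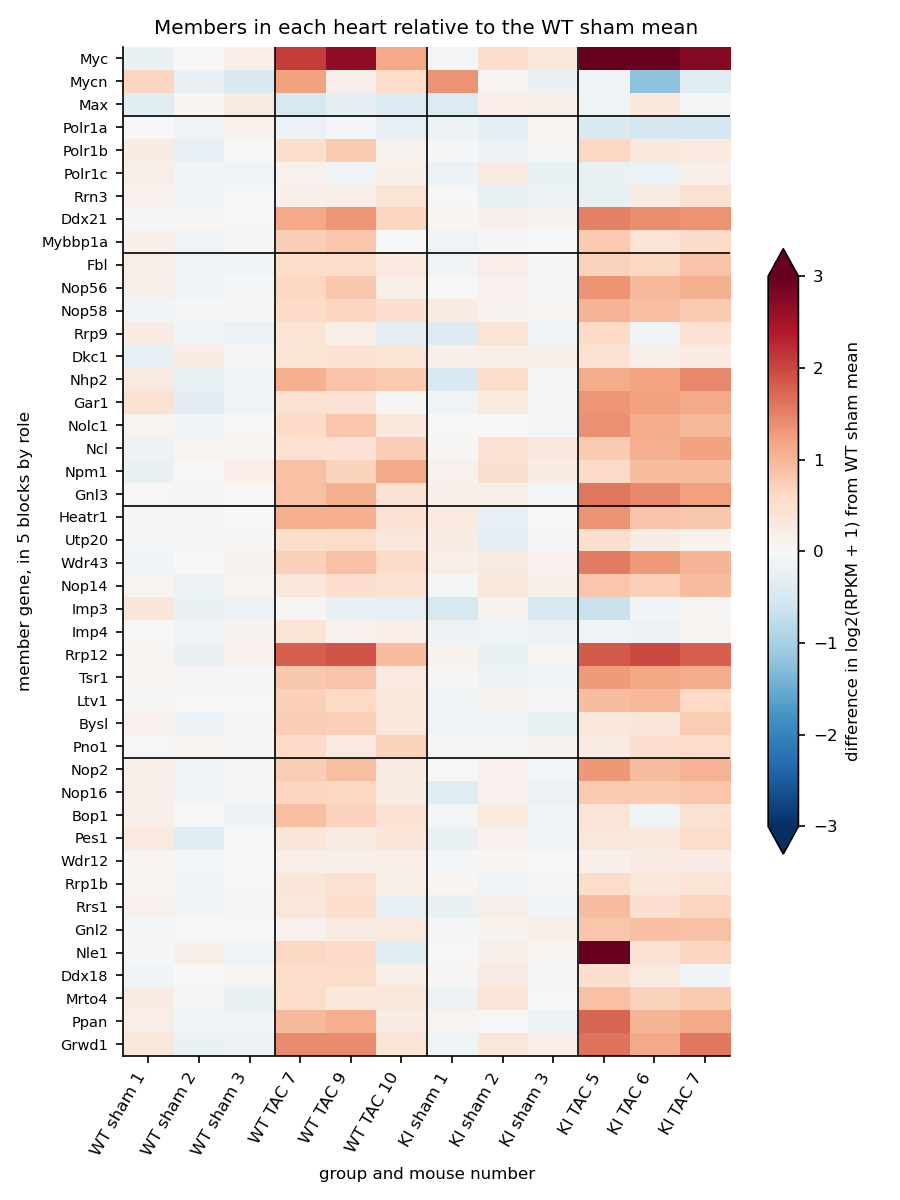
Level of each of the 44 members (rows, in 5 blocks by role) in each of the 12 hearts (columns, by group and mouse number), as the difference in log2(RPKM + 1) from the mean of the WT sham hearts (colour, clipped at 3). TAC columns are mostly red and sham columns mostly pale, WT TAC mouse 10 is paler than the other WT TAC hearts, and Nle1 stands out in KI TAC mouse 5.

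Of the 6 members that belong to RNA polymerase I and its partners, 1 rose in WT and 2 in KI hearts, where 6.96% and 8.57% of all genes tested rose, with median log2 fold changes of 0.36 and 0.41. Ddx21 (ENSMUSG00000020075, chromosome 10, 62580251 to 62602281 on the minus strand), an RNA helicase that acts in ribosomal DNA transcription and processing, was 6.11, 6.48 and 6.21 RPKM in WT sham and 15.1, 17.3 and 10.4 RPKM in WT TAC hearts. It was 6.56, 7.05 and 6.80 RPKM in KI sham and 19.8, 18.1 and 17.5 RPKM in KI TAC hearts. Sham hearts of both genotypes lay within a narrow band, TAC hearts were all above it, and KI TAC hearts were all above WT TAC hearts. Ddx21 rose by 1.04 in WT (adjusted p = 0.00267) and by 1.32 in KI hearts (adjusted p = 0.000241, both from limma with a standard error of 0.18). The difference between the TAC groups was 0.38 (adjusted p = 0.162 from limma).

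Mybbp1a, a nucleolar protein that binds Myb and associates with RNA polymerase I, was 30.7, 25.3 and 26.6 RPKM in WT sham hearts and 46.6, 49.7 and 27.3 RPKM in WT TAC hearts, where mouse 10 stayed within the sham range. In KI hearts it was 24.9, 26.6 and 27.7 RPKM after sham and 47.8, 36.6 and 41.2 RPKM after TAC, without overlap. On the log2 scale the change was 0.52 in WT (adjusted p = 0.134) and 0.64 in KI hearts (adjusted p = 0.0470, both from limma with a standard error of 0.22). The KI call was lost without any 1 of the 6 KI hearts, with adjusted p between 0.0576 and 0.140.

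None of the 3 polymerase subunits on the list, Polr1a, Polr1b and Polr1c, passed the threshold in either genotype. Polr1a, the largest subunit, was 8.34, 7.70 and 9.26 RPKM in WT sham, 7.35, 8.07 and 6.96 in WT TAC, 7.43, 6.69 and 8.85 in KI sham and 5.96, 5.65 and 5.60 RPKM in KI TAC hearts. The KI TAC hearts were the 3 lowest of all 12. Its log2 fold change was −0.16 in WT (adjusted p = 0.526) and −0.35 in KI hearts (standard error 0.15, adjusted p = 0.10 from limma), and after median-ratio scaling the KI value was −0.21. Polr1b, the second largest subunit, ranged from 3.2 to 4.79 RPKM in sham and from 4.27 to 7.46 RPKM in TAC hearts, with log2 fold changes of 0.47 in WT (adjusted p = 0.127) and 0.52 in KI hearts (adjusted p = 0.0622 from limma). Polr1c, a subunit shared with RNA polymerase III, had log2 fold changes of 0.06 and −0.04, and Rrn3, which recruits the polymerase to the ribosomal DNA promoter, had 0.26 and 0.29, none of them past the threshold.

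The snoRNP proteins and nucleolar scaffolds rose in 5 of 11 members in WT and in 9 of 11 in KI hearts, beside 6.96% and 8.57% of all genes tested, with median log2 fold changes of 0.55 and 0.76. Both counts include Nop58, which passed the filter only through TAC hearts. Nhp2 and Gar1 are parts of the H/ACA snoRNP, which makes pseudouridine. Nhp2 (ENSMUSG00000001056, chromosome 11, 51619735 to 51623714 on the plus strand) was 8.50, 5.90 and 6.46 RPKM in WT sham and 15.4, 13.2 and 12.5 RPKM in WT TAC hearts. In KI hearts it was 4.75, 10.5 and 6.75 RPKM after sham and 15.9, 16.9 and 20.5 RPKM after TAC. TAC hearts were above sham hearts in both genotypes, and KI sham hearts spread over more than the WT sham hearts. Nhp2 rose by 0.90 in WT (adjusted p = 0.0224) and by 1.22 in KI hearts (adjusted p = 0.00221, both from limma with a standard error of 0.23). The WT call was lost without WT sham mouse 2, WT sham mouse 3 or WT TAC mouse 7, with adjusted p of 0.0924, 0.0788 and 0.0950.

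Gar1 (ENSMUSG00000028010, chromosome 3, 129824912 to 129831396 on the minus strand) was the member with the second largest difference between the TAC groups past the threshold, after Myc. It was 4.05, 1.90 and 2.34 RPKM in WT sham and 3.99, 3.90 and 2.75 RPKM in WT TAC hearts, which overlapped. It was 2.41, 3.50 and 2.50 RPKM in KI sham and 8.15, 7.61 and 7.03 RPKM in KI TAC hearts, the latter above all other hearts. Its log2 fold change after TAC was 0.30 in WT (adjusted p = 0.359) and 1.19 in KI hearts (adjusted p = 0.00138), and KI exceeded WT TAC hearts by 0.93 (adjusted p = 0.0170, all from limma with a standard error of 0.21). Without WT TAC mouse 7 or KI TAC mouse 6 that difference had an adjusted p of 0.0566 and 0.0686. Dkc1, the pseudouridine synthase of the same particle, was 1.09 to 1.88 RPKM in WT sham and 2.32 to 2.37 RPKM in WT hearts after TAC. Its log2 fold changes were 0.43 in WT (adjusted p = 0.0615) and 0.12 in KI hearts (adjusted p = 0.573 from limma).

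The box C/D snoRNP, which methylates ribosomal RNA, is represented by Fbl (the methyltransferase fibrillarin), Nop56, Nop58 and the U3-specific Rrp9. Nop56 (chromosome 2, 130274430 to 130279313 on the plus strand) was 4.41, 3.52 and 3.80 RPKM in WT sham, 6.49, 7.52 and 4.54 in WT TAC, 3.95, 4.37 and 3.68 in KI sham and 11.5, 8.63 and 9.21 RPKM in KI TAC hearts. Every KI TAC heart was above every other heart. Its log2 fold change was 0.53 in WT (adjusted p = 0.0718), 1.10 in KI (adjusted p = 0.000957) and 0.60 for KI TAC against WT TAC hearts (adjusted p = 0.0479, all from limma with a standard error of 0.18). The last call was lost in 7 of 12 alternatives, among them the fits without WT TAC mouse 7, WT TAC mouse 10, KI TAC mouse 5 or KI TAC mouse 6.

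Nop58 was the lowest of the tested members, at 0.234, 0.334 and 0.331 RPKM in WT sham and 0.933, 1.03 and 0.836 RPKM in WT TAC hearts. In KI hearts it was 0.551, 0.403 and 0.349 RPKM after sham and 1.62, 1.44 and 1.22 RPKM after TAC, and groups did not overlap in either genotype. Since Nop58 passed the filter only through TAC hearts, its test is taken from the limma fit of all 13552 genes without a filter, in which it rose by 0.57 in WT (adjusted p = 0.00317) and by 0.76 in KI hearts (adjusted p = 0.000271). At so low a level log2(RPKM + 1) understates the change. The mean RPKM of Nop58 after TAC was 3.11 times the sham mean in WT and 3.28 times in KI hearts. A stretch of the Nop58 transcript matches transcripts of 38 other genes, none of them a pseudogene, so its level is uncertain. Fbl rose in KI hearts by 0.67 (adjusted p = 0.00462) and had a log2 fold change of 0.46 in WT hearts (adjusted p = 0.0513 from limma), and Rrp9 had 0.10 and 0.35 without passing the threshold.

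Nolc1, which chaperones snoRNPs between Cajal bodies and the nucleolus, was 4.14, 3.61 and 3.86 RPKM in WT sham and 6.28, 7.61 and 5.08 RPKM in WT TAC hearts. It was 3.90, 3.90 and 3.69 RPKM in KI sham and 11.5, 9.46 and 8.56 RPKM in KI TAC hearts. The 4 groups were ordered without overlap between sham, WT TAC and KI TAC hearts. Nolc1 rose by 0.58 in WT (adjusted p = 0.0358) and by 1.16 in KI hearts (adjusted p = 0.000364), and the TAC groups differed by 0.57 (adjusted p = 0.0401, all from limma with a standard error of 0.16). The WT call held in 4 of 12 alternatives, the KI call in 12 of 12 and the difference between TAC groups in 7 of 12.

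Gnl3 (nucleostemin, ENSMUSG00000042354, chromosome 14, 31012433 to 31019152 on the minus strand), a GTPase of the nucleolus named for its presence in stem cells, was 1.14, 1.20 and 1.12 RPKM in WT sham and 2.96, 3.54 and 1.91 RPKM in WT TAC hearts. KI sham hearts had 1.43, 1.43 and 1.08 RPKM and KI TAC hearts 5.47, 4.89 and 4.03 RPKM. Sham hearts lay together, WT TAC hearts above them and KI TAC hearts above those. It rose by 0.80 in WT (standard error 0.17, adjusted p = 0.00891) and by 1.32 in KI hearts (adjusted p = 0.000197), and the TAC groups differed by 0.62 with KI higher (adjusted p = 0.0332, all from limma). The difference between TAC groups missed the threshold without WT TAC mouse 7, WT TAC mouse 10, KI TAC mouse 5 or KI TAC mouse 6 (limma adjusted p between 0.0886 and 0.113) and with those groups fitted by themselves (limma adjusted p = 0.117).

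Npm1 (nucleophosmin, ENSMUSG00000057113, chromosome 11, 33152287 to 33163206 on the minus strand), the scaffold of the granular nucleolus, was 5.47, 6.46 and 7.51 RPKM in WT sham and 12.7, 10.8 and 15.3 RPKM in WT TAC hearts. In KI hearts it was 7.09, 9.36 and 7.71 RPKM after sham and 10.1, 13.3 and 13.4 RPKM after TAC. TAC hearts were above sham hearts in both genotypes, and the TAC groups overlapped. It rose by 0.90 in WT (standard error 0.18, adjusted p = 0.00774) and by 0.55 in KI hearts (standard error 0.18, adjusted p = 0.0454 from limma), 1 of 10 members with the larger value in WT. The KI call was lost in 5 of 12 alternatives, which were the fit of the KI groups alone and the fits without KI sham mouse 1, KI sham mouse 3, KI TAC mouse 6 or KI TAC mouse 7. Its transcript matches 8 annotated pseudogenes, and Nop56 matches 6, so the levels of these 2 genes are uncertain. Ncl (nucleolin), which binds ribosomal DNA chromatin and precursor RNA, rose by 0.75 in KI hearts (adjusted p = 0.00696) and had a log2 fold change of 0.55 in WT hearts (adjusted p = 0.0516 from limma).

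Factors of the small subunit rose in 7 of 11 members in each genotype, beside 6.96% of all genes in WT and 8.57% in KI hearts, with median log2 fold changes of 0.55 in WT and 0.68 in KI hearts. Rrp12 (ENSMUSG00000035049, chromosome 19, 41862851 to 41896173 on the minus strand), which takes part in the maturation and export of pre-ribosomes, had the largest change after Myc. It was 9.19, 7.53 and 9.57 RPKM in WT sham and 32.9, 35.2 and 17.4 RPKM in WT TAC hearts. It was 9.53, 7.43 and 8.90 RPKM in KI sham and 33.6, 37.7 and 32.8 RPKM in KI TAC hearts. TAC hearts were far above sham hearts in both genotypes, WT TAC mouse 10 was the lowest of them, and the 2 TAC groups overlapped. The mean was 3.25 times the sham mean in WT and 4.03 times in KI hearts. Rrp12 rose by 1.54 in WT (standard error 0.23, adjusted p = 0.00116) and by 1.90 in KI hearts (standard error 0.23, adjusted p = 0.000159 from limma), and both calls held in 12 of 12 alternatives.

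Heatr1, a component of the small subunit processome that also acts in ribosomal DNA transcription, was 1.78, 1.92 and 1.86 RPKM in WT sham and 4.97, 4.93 and 2.94 RPKM in WT TAC hearts. It was 2.52, 1.40 and 1.85 RPKM in KI sham and 6.28, 4.17 and 3.95 RPKM in KI TAC hearts, and TAC hearts were above sham hearts in both genotypes. Heatr1 rose by 0.86 in WT (adjusted p = 0.0155) and by 0.98 in KI hearts (adjusted p = 0.00406, both from limma with a standard error of 0.20). Without WT sham mouse 3, WT TAC mouse 7 or WT TAC mouse 9 the WT change had an adjusted p of 0.0527, 0.0759 and 0.0538.

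Wdr43, another component of the processome and the first of the promoters shown above, was 1.49, 1.62 and 1.85 RPKM in WT sham, 3.34, 3.90 and 2.93 in WT TAC, 2.06, 2.19 and 1.91 in KI sham and 6.82, 5.45 and 4.37 RPKM in KI TAC hearts. The groups were ordered without overlap from sham through WT TAC to KI TAC hearts. Wdr43 rose by 0.72 in WT (adjusted p = 0.0106) and by 1.09 in KI hearts (adjusted p = 0.000463), and the KI minus WT difference after TAC was 0.57 (adjusted p = 0.0373, all from limma with a standard error of 0.16). The first 2 calls held in 12 of 12 alternatives and the third in 7 of 12.

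Tsr1, which acts late in the maturation of the small subunit, was 2.51, 2.27 and 2.27 RPKM in WT sham and 4.90, 5.06 and 3.13 RPKM in WT TAC hearts. It was 2.45, 2.01 and 2.18 RPKM in KI sham and 7.07, 6.49 and 6.27 RPKM in KI TAC hearts, so that here too the TAC groups did not overlap. It rose by 0.66 in WT (adjusted p = 0.0179) and by 1.24 in KI hearts (adjusted p = 0.000206), and KI exceeded WT TAC hearts by 0.52 without passing the threshold (adjusted p = 0.0508, all from limma with a standard error of 0.16). The WT call was lost without WT sham mouse 2, WT sham mouse 3, WT TAC mouse 7 or WT TAC mouse 9. Of the exon length of Tsr1, 32.3% is antisense to Srr and of that of Bysl 9.37% is antisense to Ccnd3. The strand setting of the counting is not given in the sources used here, so reads of these pairs may not be told apart.

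The other called members of this role had smaller changes. Ltv1, which is released from the small subunit late in its maturation, had log2 fold changes of 0.55 in WT (adjusted p = 0.0395) and 0.85 in KI hearts (adjusted p = 0.00208 from limma), and Bysl (bystin) had 0.59 (adjusted p = 0.0471) and 0.63 (adjusted p = 0.0225). Pno1, which binds the end of the small subunit RNA, had 0.52 in WT (adjusted p = 0.0485) and 0.38 in KI hearts (adjusted p = 0.0987, both from limma). The WT calls of these 3 genes were lost in 9, 7 and 8 of 12 alternatives. Nop14, a processome protein, rose in KI hearts by 0.68 (adjusted p = 0.00548) and had 0.43 in WT hearts (adjusted p = 0.0760 from limma). Utp20 had 0.47 in WT (adjusted p = 0.0679) and 0.31 in KI hearts (adjusted p = 0.167, both from limma). Imp3 and Imp4, the partners of U3 RNA in the processome, had the smallest log2 fold changes of this role: Imp3 had −0.15 and 0.04, and Imp4 0.25 and 0.07 (adjusted p between 0.265 and 0.917 from limma).

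Factors of the large subunit rose in 4 of 12 tested members in WT and in 8 of 12 in KI hearts, again beside 6.96% and 8.57% of all genes, with median log2 fold changes of 0.41 and 0.76. Grwd1 (ENSMUSG00000053801, chromosome 7, 45825223 to 45830944 on the minus strand), a WD-repeat protein of pre-ribosomes, was 9.06, 6.02 and 6.25 RPKM in WT sham and 20.3, 20.3 and 9.71 RPKM in WT TAC hearts. It was 6.29, 9.15 and 8.12 RPKM in KI sham and 23.7, 16.7 and 23.1 RPKM in KI TAC hearts. WT TAC mouse 10 lay just above the sham hearts, and the other TAC hearts were well above them. It rose by 1.08 in WT (adjusted p = 0.0183) and by 1.32 in KI hearts (adjusted p = 0.00339, both from limma with a standard error of 0.27). Without WT sham mouse 2, WT sham mouse 3, WT TAC mouse 7 or WT TAC mouse 9 the WT change lay between 0.92 and 1.01, with adjusted p between 0.0662 and 0.0884.

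Ppan (peter pan), a factor of large subunit assembly, was 2.82, 2.13 and 2.02 RPKM in WT sham and 5.51, 6.00 and 2.93 RPKM in WT TAC hearts. It was 2.52, 2.26 and 1.92 RPKM in KI sham and 10.2, 5.75 and 6.24 RPKM in KI TAC hearts. TAC hearts were above sham hearts in both genotypes, in WT TAC mouse 10 by little. Ppan rose by 0.77 in WT (adjusted p = 0.0486) and by 1.34 in KI hearts (adjusted p = 0.00142, both from limma with a standard error of 0.23). The WT call held in only 2 of 12 alternatives and the KI call in 12 of 12.

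Gnl2, a GTPase needed for export of the large subunit, had KI TAC hearts apart from all others. It was 5.15, 5.36 and 5.38 RPKM in WT sham, 5.93, 6.57 and 6.66 in WT TAC, 5.11, 5.79 and 6.10 in KI sham and 10.2, 10.8 and 10.6 RPKM in KI TAC hearts. WT TAC hearts were all above WT sham hearts by a small margin, and the KI TAC hearts lay close together and far above. The log2 fold change of Gnl2 after TAC was 0.23 in WT hearts, short of the threshold (adjusted p = 0.291), and 0.79 in KI hearts (adjusted p = 0.00129). The difference between TAC groups was 0.65 (adjusted p = 0.0138, all from limma with a standard error of 0.14). Leaving out WT TAC mouse 7 or KI TAC mouse 6 gave it an adjusted p of 0.0880 and 0.0586, and fitting the TAC groups alone 0.0683 (limma).

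Nop2, a methyltransferase of the large subunit RNA whose promoter is among those shown, rose by 0.63 in WT (adjusted p = 0.0472) and by 1.07 in KI hearts (adjusted p = 0.00151 from limma), the WT call being lost in 8 of 12 alternatives. In KI hearts alone Nop16 (0.94), Rrs1 (0.72), Mrto4 (0.71) and Rrp1b (0.46) passed the threshold, and their WT log2 fold changes were 0.51, 0.20, 0.39 and 0.34. The KI calls of Rrs1 and Rrp1b were lost in 3 and 4 of 12 alternatives, and those of Nop16 and Mrto4 in 0. Bop1 and Pes1 form the PeBoW complex with Wdr12. Bop1 was 19.6, 17.7 and 15.4 RPKM in WT sham, 33.4, 29.0 and 24.0 in WT TAC, 16.9, 21.8 and 16.2 in KI sham and 23.1, 16.2 and 24.3 RPKM in KI TAC hearts. It rose by 0.68 in WT hearts (adjusted p = 0.0443), lost in 6 of 12 alternatives, and had a log2 fold change of 0.20 in KI hearts (adjusted p = 0.514 from limma), where TAC and sham hearts overlapped. Pes1 had 0.34 and 0.46 (adjusted p = 0.222 and 0.0726 from limma), and the untested Wdr12 was 0.690 to 0.776 RPKM in WT sham, 0.898 to 0.986 in WT TAC, 0.671 to 0.748 in KI sham and 0.914 to 1.05 RPKM in KI TAC hearts. Ddx18, an RNA helicase, had 0.43 in WT and 0.16 in KI hearts, neither past the threshold.

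Nle1, a Notchless homologue that acts in large subunit assembly, was high in 1 heart. It was 3.75, 4.50 and 3.52 RPKM in WT sham, 6.52, 6.33 and 2.87 in WT TAC and 3.96, 4.57 and 4.08 RPKM in KI sham hearts. In KI TAC hearts it was 40.3 RPKM in mouse 5, 5.62 in mouse 6 and 6.68 in mouse 7. The log2 difference between KI TAC and KI sham hearts was 1.30, which missed the threshold (standard error 0.50, limma adjusted p = 0.0776). Unc45b, a muscle myosin chaperone gene that starts 2138 bases away on the opposite strand of chromosome 11 (named after its values were seen), was 64.1 RPKM in the same heart, the highest of the 12, where the others had 19.4 to 48.1 RPKM.

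**Figure D3:**
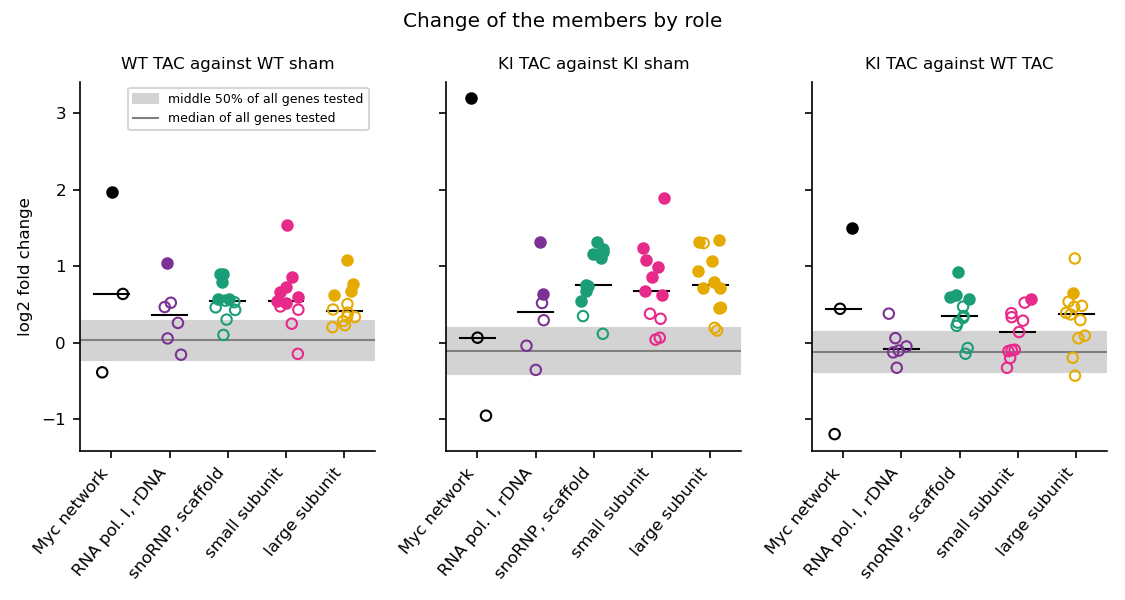
Log2 fold change of the 43 tested members by role in 3 comparisons, where a point is a gene, filled if past an adjusted p of 0.05, and a bar is the median of the role. The grey band holds the middle 50% of all genes tested and the grey line their median. After TAC most nucleolar members lie above the band in both genotypes, and fewer do so between the TAC groups.

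When the TAC hearts of the 2 genotypes were compared directly, 7 of 43 members (16.3%) were higher in KI hearts and 0 were lower, where 2.92% of all genes tested were higher and 8.13% lower. They were Myc, 4 snoRNP and scaffold genes (Gar1, Gnl3, Nop56 and Nolc1), the small subunit factor Wdr43 and the large subunit factor Gnl2. The 6 besides Myc had log2 fold changes between 0.57 and 0.93. The median over the members was 0.30, and 0.17 without WT TAC mouse 10 and 0.46 with median-ratio scaling, beside −0.062 and 0.030 over all genes. In 18 members every KI TAC heart was above every WT TAC heart (10.1% of all genes tested), and in 3, Mycn, Polr1a and Imp4, every KI TAC heart was below (19.4% of all genes tested). The 18 include Nop58, which passed the filter only through TAC hearts. The count of 7 rested on single hearts: leaving out WT TAC mouse 7 or KI TAC mouse 6 gave 0, leaving out WT TAC mouse 10 or KI TAC mouse 5 gave 2, and leaving out WT TAC mouse 9 or KI TAC mouse 7 gave 8. Fitting the TAC groups alone left 1 member, and 0.667% of all genes tested. Of the genes called in this comparison 26.4% were higher as deposited, 46.0% after quantile normalization and 58.6% after median-ratio scaling, and both scalings gave 11 members higher, beside 4.65% and 6.70% of all genes tested. No member kept its call in all 12 alternatives. This comparison shares the TAC hearts with the comparisons against sham, so the 3 sets of calls are not independent.

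The interaction of genotype and surgery asks whether KI hearts responded to TAC by more or less than WT hearts. No member passed the threshold, nor did any of the 11240 genes (0.00%), where 7 members (16.3%) and 1668 genes (14.8%) had an unadjusted p under 0.05 in limma. Counting only values above 0, these were 14% of members and 3.86% of genes. That count is on the deposited scale, on which 36.6% of all genes tested lay above 0. It was not made on the other scales, so how far it rests on this shift was not tested. Limma-voom on recovered reads called 0 members too. The members' median interaction was 0.24 beside −0.13 over all genes, 0.13 beside −0.070 without WT TAC mouse 10, 0.15 beside −0.13 without KI sham mouse 1, 0.38 beside 0.0021 with quantile normalization and 0.42 beside 0.031 with median-ratio scaling. Among the 7 were Gar1 (0.88, unadjusted p = 0.00898, adjusted p = 0.214), Gnl2 (0.56, adjusted p = 0.221), Tsr1 (0.59, adjusted p = 0.259), Nolc1 (0.58, adjusted p = 0.268), Nop56 (0.57, adjusted p = 0.320) and Gnl3 (0.52, adjusted p = 0.327, all from limma), each with the larger rise in KI hearts. The last was Mycn, with the opposite sign.

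**Figure D4:**
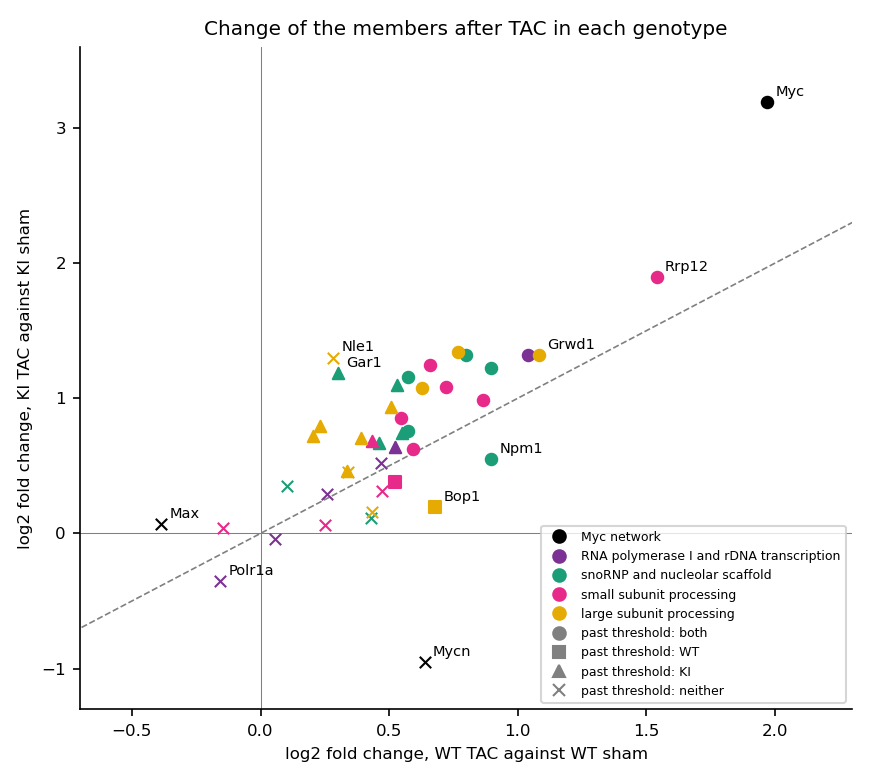
Log2 fold change after TAC in WT hearts (horizontal axis) and in KI hearts (vertical axis) of the 43 tested members, coloured by role and shaped by the genotype in which they passed an adjusted p of 0.05; the dashed line marks equal change. Of the 43 points, 33 lie above the line, and Myc (1.97 and 3.19) is the farthest out, while Npm1, Bop1 and Mycn lie below it.

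Under sham surgery the genotypes did not differ past the threshold in any member. The limma model called 0 of 43 members, where 0.0178% of all genes tested were called, and no member had an unadjusted p under 0.05. The members' log2 fold changes for KI sham against WT sham lay between −0.28 (Imp3) and 0.40 (Mycn), with a median of 0.020. Myc had 0.28 (standard error 0.41), its sham ranges of 2.33 to 3.36 RPKM in WT and 2.74 to 4.52 RPKM in KI hearts overlapping. With a standard error of 0.41 on the log2 scale, a small difference in Myc between sham groups was not detectable.

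The members can also be set beside Myc heart by heart. The mean log2(RPKM + 1) of the 41 nucleolar members, relative to its mean over the 12 hearts, was −0.38 to −0.21 in sham hearts. It was 0.29, 0.30 and −0.0079 in WT TAC mice 7, 9 and 10, and 0.51, 0.33 and 0.41 in KI TAC mice 5, 6 and 7. The 6 hearts with the most Myc were the 6 TAC hearts and were also the 6 with the highest level of these members. KI TAC mouse 5 had the most of both and WT TAC mouse 10 the least of both among TAC hearts. Both statements held when Myc and the members were quantile-normalized or scaled by median ratios. Within groups the order was not always the same. As deposited, KI TAC mouse 6 ranked 2 by Myc and 3 by the members, and KI TAC mouse 7 ranked 3 and 2. WT sham mouse 1 had the least Myc of the 12 hearts and ranked 8 by the members. The summed RPKM of the 41 genes was 230 to 274 in sham hearts and 314 to 482 in TAC hearts. Because hearts of a group share their treatment, no correlation over the 12 hearts is given.

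WT TAC mouse 10 was the lowest WT TAC heart for 29 of the 41 nucleolar members, and mice 7 and 9 for 4 and 8. The highest value of the WT TAC group was in mouse 10 for 7 of the 41, Npm1, Ncl, Pno1 and Rrn3 among them. The same heart had the highest summed level of 6 fibroblast markers of all 12 hearts, 753 RPKM where the other WT TAC hearts had 315 and 143 RPKM, and the highest sum of 6 macrophage markers, 141 RPKM against 93.7 and 75.2 RPKM. Most of the fibroblast sum was Col1a1 (461 RPKM) and Col3a1 (151 RPKM). Dcn was not raised there, with 43.3 RPKM beside 43.5 RPKM in WT TAC mouse 9. The proliferation marker Mki67 was 4.18 RPKM in WT TAC mouse 10 and 0.06 to 0.94 RPKM in the other 11 hearts. The part of these markers in the members' values was not tested. As given above, the WT count was 22 without this heart and the count of members higher in KI hearts after TAC was 2.

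**Figure D5:**
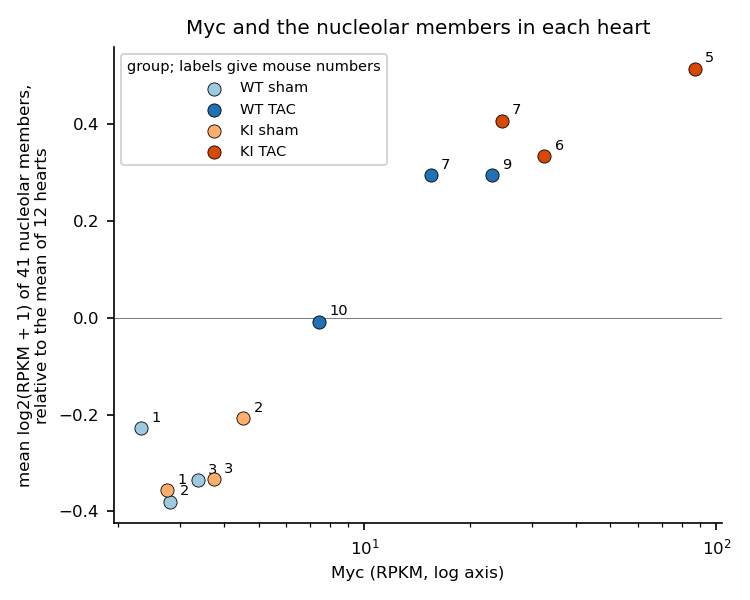
Myc (RPKM, log axis) against the mean log2(RPKM + 1) of the 41 nucleolar members relative to the mean of the 12 hearts, where a point is a heart coloured by group and labelled with its mouse number. Sham hearts lie at the lower left, KI TAC hearts at the upper right, and WT TAC mouse 10 (7.43 RPKM and −0.0079) lies between sham and the other TAC hearts.

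Markers of other cell types moved with TAC as well. Of 5 neutrophil markers, 3 were in the table (S100a8, S100a9 and Csf3r), and Retnlg and Cxcr2 were not. Their sum was 0.395 to 1.27 RPKM in sham hearts, 3.69 to 9.87 in WT TAC and 4.18 to 20.3 RPKM in KI TAC hearts, with S100a8 at 0.00 RPKM in WT sham mouse 3 and S100a9 at 0.00 RPKM in KI sham mouse 2. All 6 macrophage markers were in the table, summing to 58.9 to 79.2 RPKM in sham, 75.2 to 141 in WT TAC and 79.5 to 91.1 RPKM in KI TAC hearts. All 6 fibroblast markers were present too, with sums of 118 to 250 RPKM in sham, 143 to 753 in WT TAC and 97.1 to 177 RPKM in KI TAC hearts. The 5 endothelial markers summed to 234 to 330 RPKM and the 5 smooth muscle and pericyte markers to 124 to 262 RPKM over all hearts. KI TAC mouse 5, with the most Myc, also had the highest neutrophil sum. The neutrophil markers passed the filter only through TAC hearts, so no count of them is given. In the limma fit without the filter S100a9 changed by 1.58 in WT (adjusted p = 0.0162) and by 2.77 in KI hearts (adjusted p = 0.000326). S100a8 changed by 1.14 in WT (adjusted p = 0.0624) and by 1.91 in KI hearts (adjusted p = 0.00317, limma). Csf3r changed by less in KI (0.63, adjusted p = 0.0336) than in WT hearts (0.86, adjusted p = 0.0137, limma). Its difference between the TAC groups was −0.35 (KI minus WT), where S100a9 had 0.92. Of the macrophage markers 2 of 6 rose and of the cardiomyocyte markers 1 of 7 fell in WT hearts, where 6.96% of all genes tested rose and 4.60% fell. In KI hearts 1 of 6 macrophage, 1 of 6 fibroblast and 1 of 7 cardiomyocyte markers fell, where 8.57% of all genes rose and 14.7% fell. The macrophage markers were split in KI hearts. In 4 of the 6 every TAC heart was above every sham heart, and in 2 every TAC heart was below. These patterns held for 13.6% and 24.7% of all genes tested. Cardiomyocyte markers also differed between the TAC groups. Their median log2 fold change was −0.69 in WT and 0.06 in KI hearts after TAC and 0.76 for the difference of the TAC groups (KI minus WT), in which 2 of 7 were called higher. In WT hearts 6 of the 7 were below 0 and 1, Actc1, was above (0.42). Actc1 was 8276 to 10941 RPKM after sham and 8113 to 19135 RPKM after TAC in WT hearts. Myh6, a main cardiac myosin heavy chain, was 3341 to 4836 RPKM after sham and 1392 to 2497 RPKM after TAC in WT hearts. KI hearts had 3043 to 3522 RPKM after sham and 2274 to 3784 RPKM after TAC. The median difference of the 6 fibroblast markers between the TAC groups was −1.17 with 0 called, and 2 of 6 macrophage markers were lower in KI hearts, where 2.92% of all genes were higher and 8.13% lower. The part of these cells in the members' changes, and in the members' differences between the TAC groups, was not tested.

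Other genes of the same pathways were counted from lists written for this comparison. Of 85 tested genes of ribosome assembly that are not members, 19 rose in WT and 31 in KI hearts and 0 fell in either, with median log2 fold changes of 0.31 and 0.36. The shares that rose were 22.4% and 36.5%, against 6.96% and 8.57% of all genes tested. Those with the largest WT changes were Rpf2 (0.78), Nifk (0.76), Wdr46 (0.72), Wdr75 (0.65) and Esf1 (0.61), with adjusted p between 0.00450 and 0.0439 from limma. In KI hearts they were Nifk (1.16), Rcl1 (1.15), Ftsj3 (1.07), Las1l (0.94) and Nip7 (0.86). Between the TAC groups 5 of the 85 passed the threshold, and these were named after their values were seen: Las1l (0.87), Riok2 (0.68) and Rrp15 (0.55) were higher in KI hearts, and Tcof1 (−0.71) and Dhx37 (−0.63) were lower. Over all genes tested 2.92% were higher and 8.13% lower. The 3 higher genes (3.53%) thus lie near the background and the 2 lower genes below it. Rrp15 passed the filter only through TAC hearts, those of all 3 KI mice and of WT mouse 9, and without the filter its adjusted p was 0.0228 (limma). Nmd3, another gene that rose in KI hearts, also passed through TAC hearts only. Tcof1, the treacle protein that links RNA polymerase I to processing, had a mean of 5.30 RPKM in KI TAC and 9.23 RPKM in WT TAC hearts.

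Of 15 tested other genes of RNA polymerase I, 1 rose in WT hearts (Polr1e, 0.60, adjusted p = 0.0462) and 2 in KI hearts (Taf1d, 0.56, adjusted p = 0.0131, and Polr1d, 0.53, adjusted p = 0.0404, from limma). Taf1d passed the filter only through TAC hearts, and without the filter its adjusted p in KI hearts was 0.00964 (limma). Polr1e, a subunit that helps the polymerase start, differed between the TAC groups by −0.88 (KI minus WT, adjusted p = 0.0119 from limma), with means of 4.26 RPKM in KI and 8.69 RPKM in WT hearts. Ubtf, the factor that holds ribosomal DNA in an active state, had −0.11 and 0.05 after TAC. Over all genes tested 6.96% rose in WT and 8.57% in KI hearts, so the counts of 1 and 2 of 15 (6.67% and 13.3%) lie near the background.

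Of 9 tested other genes of the Myc network, 0 rose and 1 fell in each genotype, where 4.60% of all genes tested fell in WT and 14.7% in KI hearts. It was Mlxipl, the glucose-sensing relative ChREBP, with −0.86 in WT (adjusted p = 0.0257) and −0.77 in KI hearts (adjusted p = 0.0264 from limma). Mxi1, which competes with Myc for Max, had −0.53 and −0.40 (adjusted p = 0.0734 and 0.124 from limma).

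Of 28 genes known as Myc targets outside the nucleolus, 5 rose and 0 fell in WT hearts, while 9 rose and 3 fell in KI hearts, with median log2 fold changes of 0.14 and 0.05. The shares that rose were 17.9% in WT, against 6.96% of all genes tested, and 32.1% in KI hearts, against 8.57%, and 14.7% of all genes fell in KI hearts. In WT hearts the 5 were the transferrin receptor Tfrc (1.88), the amino acid transporter Slc7a5 (1.42), the translation factor Eif4a1 (0.97), ornithine decarboxylase Odc1 (0.80) and the mitochondrial folate enzyme Mthfd2 (0.73). Mthfd2 passed the filter only through TAC hearts, and its adjusted p in WT hearts was 0.0139 in the limma fit without the filter. In KI hearts the largest changes were Tfrc (1.80), Eif4a1 (1.47), the transporter partner Slc3a2 (1.23), Slc7a5 (1.21) and the spermidine synthase Srm (1.17), and the cyclin Ccnd2 fell by 1.01. Between the TAC groups the only call was Cad, the enzyme that starts pyrimidine synthesis, with a KI minus WT difference of −0.93 (adjusted p = 0.0169 from limma) and means of 5.73 RPKM in KI and 12.1 RPKM in WT hearts. Over all genes tested 2.92% were higher and 8.13% lower, so 1 lower gene of 28 is below the background.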

How the data were processed

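RNA of 12 mouse hearts was sequenced as poly(A)-selected, strand-specific libraries with reads of 75 bases. Per the submitters' processing notes and the study's methods, the authors trimmed reads with Trimmomatic 0.39, aligned them to GRCm38 with HISAT2 2.2.1, counted them with HTSeq 0.6.1 and used edgeR 3.18.1 and limma 3.32.10 in R 4.1.1. The deposited table does not name its unit. Its values were taken as RPKM made by the authors, because value times GENCODE exon length summed to 997702 to 1002226 in each heart, and 97.2 to 97.9% of low values were whole reads within 0.02 read.

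Genes that reached 1 RPKM in 3 hearts or more (11240 of 13552) were fitted as log2(RPKM + 1) with limma 3.58.1 (R 4.3.3, trended variance) over all 4 groups, with Benjamini-Hochberg adjustment and a threshold of 0.05; the script was checked on simulated data. For each comparison of TAC with sham or between TAC groups, 12 other fits served as alternatives (13 between sham groups, with the mouse number as a block, and 17 for the interaction, which needs all groups): quantile normalization, median-ratio scaling, a pseudocount of 0.1, no filter, the groups compared only, limma-voom on recovered reads of 11236 genes, and each mouse left out. Mouse numbers of sham hearts do not pair them. P-values measure the spread between mice, with 3 a group.

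Members and lists were chosen with earlier results of these data known. By rule, full values were given for Myc, Mycn, Max, the 8 members with the largest changes past the threshold in each comparison, and members of an unusual direction (Polr1a), and other lists name up to 5 called genes. Full values of Mybbp1a, Nop58, Bop1 and Nle1 were added after their values were seen. So were the names of Unc45b, Mki67, Myh6, Actc1, Col1a1, Col3a1, Dcn, Ubtf, Mxi1, Cad and the genes of other lists called between TAC groups. Promoter motifs were searched with Python 3.11.15, and sequence copies with BLAST 2.17.0.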

Additional observations from a re-analysis of the deposited data

How the results depend on the processing

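The members higher after TAC in WT hearts numbered 18, with 7 to 22 when 1 mouse was left out and 12 to 19 in the other alternatives, and in KI hearts 27, with 22 to 26 and 24 to 31. For KI TAC against WT TAC the 7 became 11 with quantile normalization, 11 with median-ratio scaling, 1 when only these groups were fitted, and 0 to 8 when 1 mouse was left out. The fit of these groups alone rests on fewer samples; for the scalings the cause was not tested. No member was lower in any of these alternatives. Calls that held in all 12 alternatives were 7 of 18 in WT, 22 of 27 in KI and 0 of 7 between the TAC groups.

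Among Myc, Mycn, Max and the members past the threshold, direction turned only for Max and Mycn, in values that passed no threshold. Of all 43 members, 29 were above 0 for KI TAC against WT TAC, and 32 and 36 were with quantile normalization and median-ratio scaling. Max in KI TAC against KI sham ranged from −0.13 to 0.18 with 1 mouse left out. In KI sham against WT sham, Max was 0.0020 with limma-voom on recovered reads and −0.17 to 0.19 with 1 mouse left out, and Mycn was −0.080 to 0.72. Limma-voom called 786 genes higher and 485 lower in WT, 999 and 1721 in KI hearts, with 16 and 27 members higher. With the number of the sham mice as a replicate block, 0 members were higher and 0 lower in KI sham against WT sham, as without it, and 0 genes were called where 2 were without it. Same-numbered sham mice did not deviate together (correlations of −0.22, −0.30 and 0.44), so the numbers name mice only.

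With 3 mice a group, leaving out 1 heart ended each of the 7 calls between the TAC groups. The lowest read number of a member in any heart was 77 (Gar1), and counting error covers only part of the spread between mice.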
